A study of Arabidopsis thaliana with 9 samples.

Results

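The genes described here are the 10 that encode enzymes of jasmonate synthesis in Arabidopsis thaliana, chosen by locus identifier from the 25320 genes of the expression table: the lipoxygenases LOX2, LOX3 and LOX4, the allene oxide synthase AOS, the allene oxide cyclases AOC1, AOC2, AOC3 and AOC4, the reductase OPR3 and the conjugating enzyme JAR1. All 10 were found and all 10 passed the filter on low values that 17740 genes of the table passed. Levels come from mRNA sequencing of stems and leaves of wild-type seedlings, grown on soil and 2 weeks old per the labels, in 9 libraries of 3 groups. Control plants (3 libraries, day 0) had 0 cold cycles. Cold-once plants (3 libraries, day 1) had 1 cycle, which consisted of 4 °C for 6 h and then room temperature for 18 h. Repeated-cold plants (3 libraries, day 4) had 4 such cycles. The treatment description puts 0 °C for 6 h after the cycles and sets the control apart, without naming the libraries that had this step or giving whether plants were collected before or after it. Day differed between the groups in each comparison while the stated age was the same, so cold cycles and day cannot be told apart. All plants carried the wild-type genotype and no transgene is named. The labels do not say whether the replicates were separate cultures, and the tests cover the spread of these libraries, which may be technical.

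Jasmonates are plant hormones made from linolenic acid, a fatty acid of chloroplast membranes. In the chloroplast a 13-lipoxygenase adds oxygen to the fatty acid, allene oxide synthase turns the hydroperoxide into an unstable epoxide, and an allene oxide cyclase closes the ring to give OPDA. OPDA moves to the peroxisome, where OPR3 reduces it and beta-oxidation shortens it to jasmonic acid, and JAR1 joins jasmonic acid to isoleucine to make the form that the receptor COI1 binds. In leaves the hormone is best known from wounding and insect attack, when many genes of its own synthesis are switched on.

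Expression is given in FPKM, a unit that divides the fragments of a gene by its length and by the size of the library, so that levels of different genes can be compared per length. The libraries held 17.98 to 21.49 M reads, with the shallowest in the repeated-cold group. The 10 genes had 208 to 81899 reads per library, so that the largest counting error of any of these values was 6.93%. The 5 leaf markers (RBCS1A, LHCB1.3, CA1, RCA and LHCB2.1) summed to 33310 to 37400 FPKM in cold once and 30810 to 36940 in repeated cold, against 28520 to 30060 in control, with RBCS1A, CA1 and RCA called higher and LHCB1.3 lower in both comparisons with control. Of 4 root markers 2 were in the table: NRT2.1 averaged 1.31 FPKM in cold once and 1.28 in repeated cold, against 0.138 in control, and was called higher in both, while BGLU23 ranged from 9.76 to 62.8 FPKM over the 9 libraries and was not called. The 3 seed markers in the table reached at most 0.909 FPKM. Flower markers were present in the leaf and stem libraries and differed between replicates. The 7 floral homeotic genes summed to 9.43, 22.4 and 42.5 FPKM in the control libraries, 1.81, 7.70 and 5.51 after 1 cycle, and 0.974, 28.7 and 1.39 in repeated cold. Every cold-once sum was below every control sum, while repeated cold overlapped with control. Of the 7 genes, 1 was called lower after 1 cycle and 0 after 4. The part of these markers in the results was not tested. Leaving out the 3 libraries with the highest flower marker sums cannot decide it. The control library then kept, at 9.43 FPKM, was still above every cold-treated library kept. In RNA from whole organs, fewer cells of a type and less RNA per cell cannot be told apart.

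Upstream sequences are shown for 5 of the genes because they place the most and the least changed cyclase copies next to each other and show where short binding motifs known from cold and jasmonate biology lie. AOC1, AOC2 and AOC3 sit in tandem on chromosome 3. Each line gives the 250 bases before the annotated gene start, 5′ to 3′ on the gene's strand, from the TAIR10.1 assembly of RefSeq. Capitals mark exact matches, on either strand, to a G-box (CACGTG, bound by MYC factors), a CRT/DRE core (CCGAC, bound by CBF factors), a TCP site (GGACCA), an evening element (AAAATATCT) or a GCC box (GCCGCC).
LOX2 (chr3:16524995-16525244, plus strand): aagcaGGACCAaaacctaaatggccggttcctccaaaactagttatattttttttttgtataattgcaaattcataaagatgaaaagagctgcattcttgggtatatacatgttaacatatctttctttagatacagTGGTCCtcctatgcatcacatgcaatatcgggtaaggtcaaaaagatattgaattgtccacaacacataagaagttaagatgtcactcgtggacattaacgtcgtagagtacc
AOS (chr5:17099596-17099845, minus strand): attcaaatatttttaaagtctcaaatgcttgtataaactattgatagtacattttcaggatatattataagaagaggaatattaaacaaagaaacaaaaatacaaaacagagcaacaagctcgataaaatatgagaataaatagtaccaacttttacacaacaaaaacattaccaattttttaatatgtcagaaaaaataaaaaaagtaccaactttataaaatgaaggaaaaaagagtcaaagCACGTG
AOC1 (chr3:9403529-9403778, plus strand): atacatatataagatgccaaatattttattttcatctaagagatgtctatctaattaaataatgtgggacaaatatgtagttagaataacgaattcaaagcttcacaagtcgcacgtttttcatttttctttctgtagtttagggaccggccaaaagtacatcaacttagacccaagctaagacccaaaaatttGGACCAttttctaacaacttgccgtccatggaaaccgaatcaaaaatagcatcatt
AOC2 (chr3:9406419-9406668, plus strand): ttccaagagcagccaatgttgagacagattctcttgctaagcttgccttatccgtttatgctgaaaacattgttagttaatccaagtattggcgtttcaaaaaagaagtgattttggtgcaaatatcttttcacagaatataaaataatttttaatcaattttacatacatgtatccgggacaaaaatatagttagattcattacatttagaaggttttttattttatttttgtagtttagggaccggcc
AOC3 (chr3:9408910-9409159, plus strand): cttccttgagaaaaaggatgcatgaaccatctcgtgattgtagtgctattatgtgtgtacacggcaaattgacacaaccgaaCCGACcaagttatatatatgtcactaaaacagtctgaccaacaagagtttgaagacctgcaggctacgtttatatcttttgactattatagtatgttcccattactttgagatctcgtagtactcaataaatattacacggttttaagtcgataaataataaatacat
The LOX2 window held the TCP site at positions -245 to -240 and -113 to -108, counted back from the gene start, and that of AOC1 held it at -56 to -51. TCP4, a leaf growth regulator, is known to act on LOX2. The JAR1 window, not printed, held the TCP site at -118 to -113 and -51 to -46. Of 27443 promoter windows of the genome, 5.9% held this motif. The single G-box was the last 6 bases of the AOS window (6.49% of all windows), the single CRT/DRE core lay at -168 to -164 in AOC3 (12%), and the single evening element at -84 to -76 in LOX3 (2.36%). The GCC box (1.87% of all windows) matched none of the 10. The windows of AOC2, AOC4, OPR3 and LOX4 matched none of the 5 motifs. Among the 45 pairs of windows the longest exact shared run was the 19 bases tgtagtttagggaccggcc, at -117 to -99 in AOC1 and -19 to -1 in AOC2; the next longest were 11 bases. These are matches of letters in the reference genome, and no binding was measured.

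The levels of the 10 genes spanned a wide range in control plants. LOX2 was highest at 820 ± 392 FPKM (SD, n = 3 as throughout), followed by AOC2 at 384 ± 89.6, AOS at 231 ± 58.3 and AOC1 at 145 ± 43.4. Each of these overlapped in range with the next. OPR3 (79.3 ± 8.75) and AOC4 (47.6 ± 3.75) followed without overlap to either side. JAR1 (25.2 ± 4.15), LOX4 (17.6 ± 5.59) and LOX3 (16.2 ± 3.74) formed an overlapping series, and AOC3 was lowest at 10.6 ± 1.31, apart from LOX3. In repeated-cold plants the order was LOX2, AOS, AOC2, AOC1, OPR3, AOC4, JAR1, LOX4, LOX3 and AOC3. The first 4 did not overlap with their neighbours, and each gene from OPR3 downward overlapped with the next. In cold-once plants each neighbouring pair overlapped. LOX2 remained the highest of the 10 in every library.

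**Figure D1:**
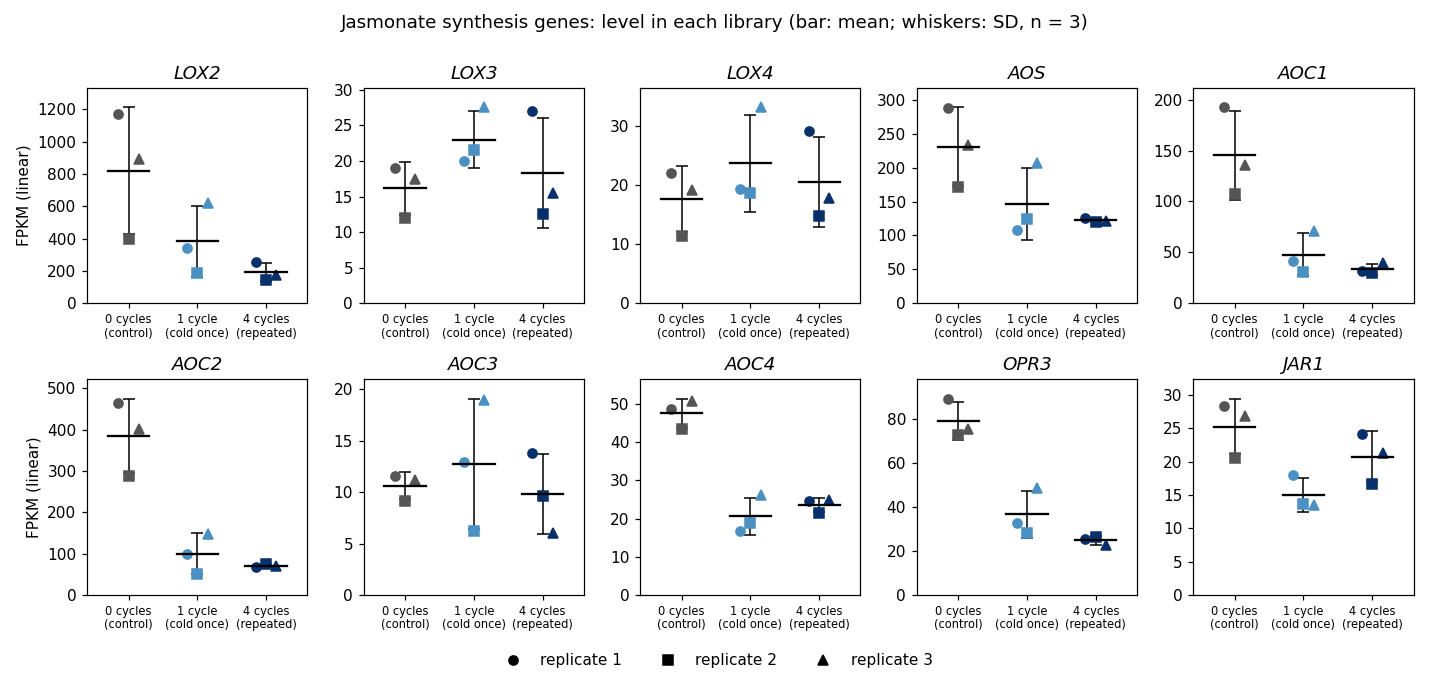
FPKM (linear axis, separate scale for each gene) of the 10 jasmonate synthesis genes in each of the 9 libraries, at 0, 1 and 4 cold cycles; symbols give the replicate number, bars the group mean and whiskers the SD of 3 libraries. AOC1, AOC2, AOC4 and OPR3 had every cold-treated library under every control library, whereas LOX3, LOX4, AOC3 and JAR1 overlapped between repeated cold and control. Of all genes, 40.6% had every cold-once library under every control library, and 31.7% had every repeated-cold library there.

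After 1 cold cycle, 6 of the 10 genes were lower than in control plants (AOS, AOC1, AOC2, AOC4, OPR3 and JAR1), 0 were higher and 4 were not called. A gene was called when limma's p, adjusted by the Benjamini-Hochberg method over all 17740 genes tested, was under 0.05. In a single simulated run per fold size, this threshold gave more false calls than its nominal level. Far fewer genes were changed in those runs than were called here. Calls were frequent in this comparison: 52.3% of all genes were called, 33.6% lower and 18.7% higher, and under median-of-ratios scaling 25.1% lower and 25.4% higher. After 4 cycles, 6 of the 10 were lower than in control (LOX2, AOS, AOC1, AOC2, AOC4 and OPR3) and 0 higher, beside 39.5% of all genes called, 24.9% lower and 14.6% higher, or 18.8% lower and 19.6% higher under median-of-ratios scaling. All called members lay in 1 direction. Leaving out the 3 libraries with the highest flower marker sums leaves 1 control library. Calls were then fewer over the whole table, and LOX2, AOS and AOC4 lost theirs after 4 cycles. The log2 changes of these 3 genes were then -2.45, -1.21 and -0.95, against -1.99, -0.88 and -0.98 with all libraries. The control library kept, replicate 1, was the highest control for 9 of the 10 genes, LOX2 and AOS among them. Over the 3 comparisons, 0 of 30 member results changed sign in that setting. The median change of the 10 was -0.91 after 1 cycle and -0.93 after 4 (log2 scale), against -0.16 and -0.10 for all genes tested; other scalings put the median of all genes between -0.01 and 0.01. Both comparisons use the same control libraries, so their likeness is not independent. Log2 changes are differences of group means of log2(FPKM + 1) and are given with the model's standard error.

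LOX2 (AT3G45140, chromosome 3, 16525245 to 16529352) encodes the abundant 13-lipoxygenase of leaf chloroplasts. Its level was 1172, 397 and 889 FPKM in the control libraries, 342, 188 and 620 FPKM in the cold-once libraries, and 258, 144 and 178 FPKM in the repeated-cold libraries. Every repeated-cold library was below every control library, while cold once and control overlapped. LOX2 fell in repeated-cold plants, with a mean of 193 ± 58.5 FPKM against 820 ± 392 in control and a log2 change of -1.99 ± 0.48 (limma adjusted p = 0.0104). After 1 cycle the mean was 383 ± 219 FPKM and the log2 change -1.12 ± 0.48, which was not called (adjusted p = 0.0779). LOX2 passed the threshold when 1 of 2 libraries was left out: without control replicate 2 the change was -1.58 (adjusted p = 0.0211), and without cold-once replicate 3 it was -1.55 (adjusted p = 0.0259).

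LOX3 (AT1G17420, chromosome 1, 5977323 to 5981521) and LOX4 (AT1G72520, chromosome 1, 27308513 to 27312756) encode further 13-lipoxygenases, whose loss together makes flowers male sterile. Their coding sequences were 80.7% identical to each other and 59.4% and 59.2% identical to LOX2. LOX3 stood at 19.0, 11.9 and 17.5 FPKM in the controls, 20.0, 21.5 and 27.5 in cold once, and 27.1, 12.5 and 15.4 in repeated cold. It was the single member whose cold-once libraries all lay above the control libraries, a separation that 24% of all genes showed upward, and its log2 change of 0.50 ± 0.27 was not called (limma adjusted p = 0.153). LOX4 stood at 22.2, 11.4 and 19.3 FPKM in the control libraries, 19.4, 18.6 and 33.2 after 1 cycle, and 29.2, 14.8 and 17.9 in repeated cold. Its groups overlapped, and neither the change after 1 cycle (0.41 ± 0.32) nor that after 4 (0.21 ± 0.32) was called. The corresponding change of LOX3 after 4 cycles was 0.12 ± 0.27, with a 95% interval from -0.49 to 0.74. The signs of both genes after 4 cycles turned without control replicate 2 (LOX3 -0.07, LOX4 -0.06) and without repeated-cold replicate 1 (LOX3 -0.18, LOX4 -0.06).

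The mean make-up of the 3 lipoxygenase transcripts differed between groups, and this was not tested. LOX2 held 95.7 ± 1.11%, 87.7 ± 4.66% and 83.5 ± 1.2% of their summed FPKM after 0, 1 and 4 cycles. The sum itself was 853 ± 401, 430 ± 230 and 232 ± 73.7 FPKM after 0, 1 and 4 cycles.

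AOS (AT5G42650, chromosome 5, 17097564 to 17099595, minus strand), the only allene oxide synthase gene of Arabidopsis, stood at 288, 171 and 233 FPKM in the control libraries, 108, 124 and 208 after 1 cycle, and 125, 120 and 122 in repeated cold. The repeated-cold libraries lay close together and below all controls, whereas cold-once replicate 3 lay among the controls. In cold-once plants AOS averaged 147 ± 53.5 FPKM against 231 ± 58.3 in control, a log2 change of -0.68 ± 0.25 (limma adjusted p = 0.0446). This call was lost under 11 of 20 alternative settings, with adjusted p of up to 0.151. Among them was median-of-ratios scaling, which gave -0.50 (adjusted p = 0.125). Control replicates 1 and 3, cold-once replicates 1 and 2 and each of the 3 repeated-cold libraries ended it when left out singly, with adjusted p between 0.0578 and 0.151. In repeated-cold plants AOS averaged 122 ± 2.87 FPKM, a log2 change of -0.88 ± 0.25 (adjusted p = 0.0206). Here the call was lost without control replicate 1 (adjusted p = 0.0739), control replicate 3 (0.0607) or repeated-cold replicate 3 (0.0530).

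Among the allene oxide cyclase copies, AOC1, AOC2 and AOC4 fell after 1 and after 4 cycles, with every cold-treated library under every control library. In the comparison with cold once, 40.6% of all genes separated downward in this way, and in that with repeated cold 31.7% did. AOC2 (AT3G25770, chromosome 3, 9406669 to 9408071), the most abundant copy, stood at 464, 287 and 402 FPKM in the control libraries, 99.9, 49.5 and 148 after 1 cycle, and 66.7, 75.8 and 70.9 in repeated cold. Its level in cold-once plants was 0.258 times that of control and in repeated-cold plants 0.185 times, the largest fall of the 10 genes in both comparisons (log2 -2.05 ± 0.34, limma adjusted p = 0.00100, and -2.39 ± 0.34, adjusted p = 6.98e-04). Its upstream window, printed above, matched none of the 5 motifs.

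AOC1 (AT3G25760, chromosome 3, 9403779 to 9405338), the neighbour of AOC2, stood at 192, 107 and 136 FPKM in the control libraries, 41, 30.5 and 71.4 after 1 cycle, and 31.8, 29.3 and 39.5 in repeated cold. The log2 change was -1.63 ± 0.30 after 1 cycle (limma adjusted p = 0.00183) and -2.05 ± 0.30 after 4 (adjusted p = 8.51e-04). AOC4 (AT1G13280, chromosome 1, 4547388 to 4548894), the copy on another chromosome, stood at 48.6, 43.4 and 50.7 FPKM in the control libraries, 16.9, 18.8 and 26.1 after 1 cycle, and 24.5, 21.5 and 24.8 in repeated cold. It had the narrowest control spread of the cyclases relative to its mean. Its change was -1.19 ± 0.15 after 1 cycle (adjusted p = 2.51e-04) and -0.98 ± 0.15 after 4 (adjusted p = 0.00116).

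AOC3 (AT3G25780, chromosome 3, 9409160 to 9411090), the third gene of the tandem, was not called in either comparison. It stood at 11.5, 9.10 and 11.2 FPKM in the control libraries, 12.9, 6.26 and 19.0 after 1 cycle, and 13.9, 9.62 and 6.03 in repeated cold, so that both cold-treated groups spread to both sides of the controls. The log2 change was 0.13 ± 0.36 after 1 cycle (95% interval -0.69 to 0.95) and -0.16 ± 0.36 after 4 (interval -0.98 to 0.66). Both signs turned when 1 library was left out, to -0.20 without cold-once replicate 3 and to 0.12 without repeated-cold replicate 3. The interval after 4 cycles does not reach the estimates of AOC1 and AOC2; the difference between copies was not tested.

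The copies resemble each other in sequence, which bears on how reads are divided between them. Coding sequences were 90.3% identical between AOC1 and AOC2, 82.7% between AOC1 and AOC3 and 82.4% between AOC2 and AOC3, with the longest identical run 73 bases, between AOC1 and AOC3. Of all windows of 50 bases in the exons, 2.2% of those in AOC1, 0.0832% of those in AOC2 and 1.6% of those in AOC3 occurred elsewhere in the genome, and 0 windows of 100 bases did. Read length and the treatment of multiply aligned reads are not given in the sources used here, so a small exchange of reads between these copies cannot be told apart from expression.

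**Figure D2:**
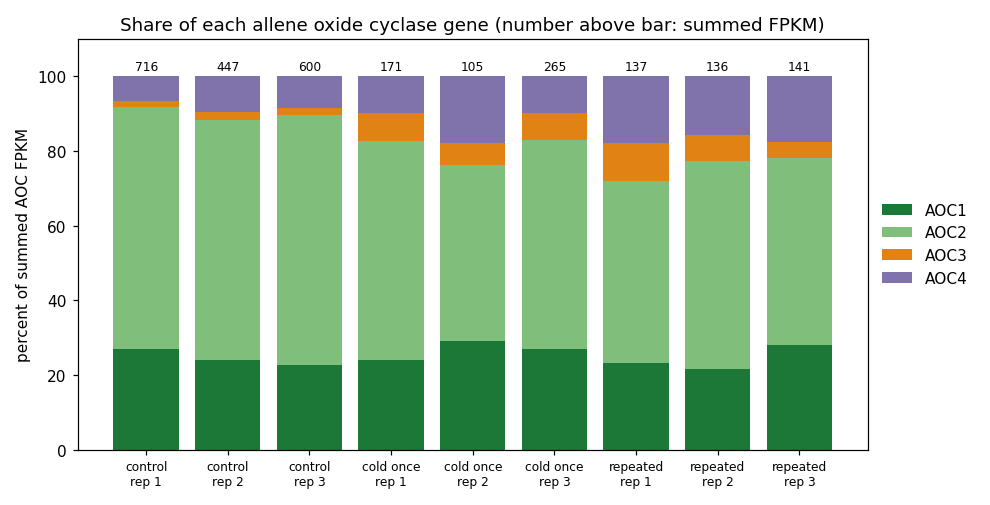
Share of each allene oxide cyclase gene in the summed FPKM of AOC1 to AOC4 (percent, stacked bars) in the 9 libraries, with the sum above each bar. AOC2 held 47.1% to 58.5% in cold-treated libraries, against 64.3% to 67.0% in control libraries, and the sum was 105 to 265 FPKM in cold-treated libraries, against 447 to 716 in control.

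The 4 cyclase genes summed to 588 ± 135, 180 ± 80.4 and 138 ± 2.8 FPKM after 0, 1 and 4 cycles. AOC2 held 65.3 ± 1.45%, 53.9 ± 6.0% and 51.5 ± 3.64% of it after 0, 1 and 4 cycles, and AOC1 24.5 ± 2.14%, 26.7 ± 2.52% and 24.2 ± 3.32%. AOC3 held 1.84 ± 0.216%, 6.90 ± 0.832% and 7.15 ± 2.93%, and AOC4 8.32 ± 1.47%, 12.5 ± 4.62% and 17.1 ± 1.16%. Every cold-treated library had a lower share of AOC2, and a higher share of AOC3, than any control library. No test was made of these shares.

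The order of AOS and AOC2, consecutive steps of the pathway, was turned round in the cold-treated plants, a pair picked after its values were seen. AOS transcript was 1.08, 2.51 and 1.40 times that of AOC2 in the cold-once libraries and 1.88, 1.58 and 1.72 times in the repeated-cold libraries, against 0.620, 0.596 and 0.580 times in the control libraries. AOS was thus above AOC2 in all 6 cold-treated libraries and below it in all 3 controls.

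OPR3 (AT2G06050, chromosome 2, 2359114 to 2362375, minus strand), the OPDA reductase of the peroxisome, stood at 89.3, 73.0 and 75.7 FPKM in the control libraries, 32.9, 28.4 and 48.9 after 1 cycle, and 25.6, 26.3 and 22.6 in repeated cold. The 3 groups did not overlap. It fell in both comparisons, by a log2 change of -1.12 ± 0.18 after 1 cycle (limma adjusted p = 8.83e-04) and -1.63 ± 0.18 after 4 (adjusted p = 1.87e-04). The second of these was the smallest p of the 10 genes after 4 cycles.

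JAR1 (AT2G46370, chromosome 2, 19033586 to 19036683) had another course. It stood at 28.4, 20.5 and 26.8 FPKM in the control libraries, 18.0, 13.6 and 13.5 after 1 cycle, and 24.2, 16.7 and 21.3 in repeated cold, with all cold-once libraries below the controls and repeated cold overlapping both other groups. JAR1 fell after 1 cycle, to 15.0 ± 2.54 FPKM in cold once against 25.2 ± 4.15 in control (log2 -0.71 ± 0.18, limma adjusted p = 0.00816). After 4 cycles it averaged 20.7 ± 3.79 FPKM, and the change of -0.27 ± 0.18 was not called (adjusted p = 0.245).

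**Figure D3:**
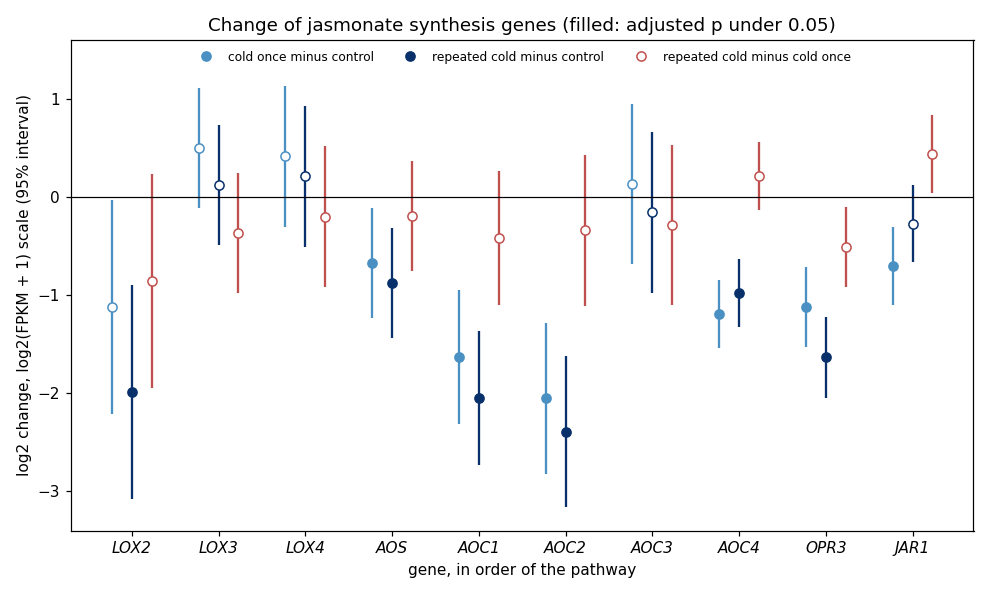
Log2 change of each jasmonate synthesis gene with its 95% interval in the 3 comparisons (light blue, cold once minus control; dark blue, repeated cold minus control; red, repeated cold minus cold once; vertical axis on the log2(FPKM + 1) scale); filled points had an adjusted p under 0.05. LOX2, AOS, AOC1, AOC2, AOC4 and OPR3 had intervals (not adjusted for the number of genes) below 0 in both comparisons with control, and no point of the comparison of repeated cold with cold once is filled.

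Between repeated cold and cold once, 0 of the 10 genes were called by limma, beside 1.27% of all genes. An unadjusted p under 0.05 was reached by 2 of them, beside 19.8% of all genes, and limma's voom on recovered reads also called 0. OPR3 was lower in every repeated-cold library than in any cold-once library, which 9.92% of all genes were, with a log2 change of -0.51 ± 0.18 (unadjusted p = 0.0200, adjusted p = 0.169). JAR1 differed by 0.43 ± 0.18 (95% interval 0.04 to 0.83, unadjusted p = 0.0347, adjusted p = 0.216). The change of LOX2 was -0.86 ± 0.48 with an interval from -1.95 to 0.23, and that of AOC4 was 0.21 ± 0.15 with an interval from -0.14 to 0.56. By the F-test over the 3 groups, LOX2 (adjusted p = 0.0207), AOS (0.0336), AOC1 (0.00118), AOC2 (8.52e-04), AOC4 (5.33e-04), OPR3 (2.96e-04) and JAR1 (0.0220) differed, beside 49.4% of all genes, and LOX3, LOX4 and AOC3 did not pass.

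Control replicate 1 was the highest of its group for 9 of the 10 genes, as for 30.4% of all genes tested, and control replicate 2 the lowest for 10 of 10, as for 43.6% of all. In the cold-once group, replicate 3 was the highest for 9 of 10, as for 27% of all genes, with a median of 0.54 log2 units above its group mean, and replicate 2 the lowest for 6 of 10, as for 36.7% of all. The same cold-once replicate 3 was the highest of its group for 7 of 8 jasmonate-responsive genes, with a median of 2.26 above the group mean. In control these 8 genes were split. Replicate 1 was the highest for 3 and the lowest for 4, and replicate 2 the highest for 4 and the lowest for 3. In repeated cold, replicate 1 was the highest for 5 of the 8. Flower markers did not follow the order of the synthesis genes in control, where replicate 3 was the highest for 7 of 7. In repeated cold the order was mixed: replicate 1 was the highest for 6 of the 10 synthesis genes (38.1% of all genes), whereas AOC1 and AOC4 were highest in replicate 3 and AOC2 and OPR3 in replicate 2. Replicate 2, which held the highest flower markers of its group for 7 of 7, was the lowest for 7 of 10 (45.9% of all genes). What separated these replicates was not tested.

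**Figure D4:**
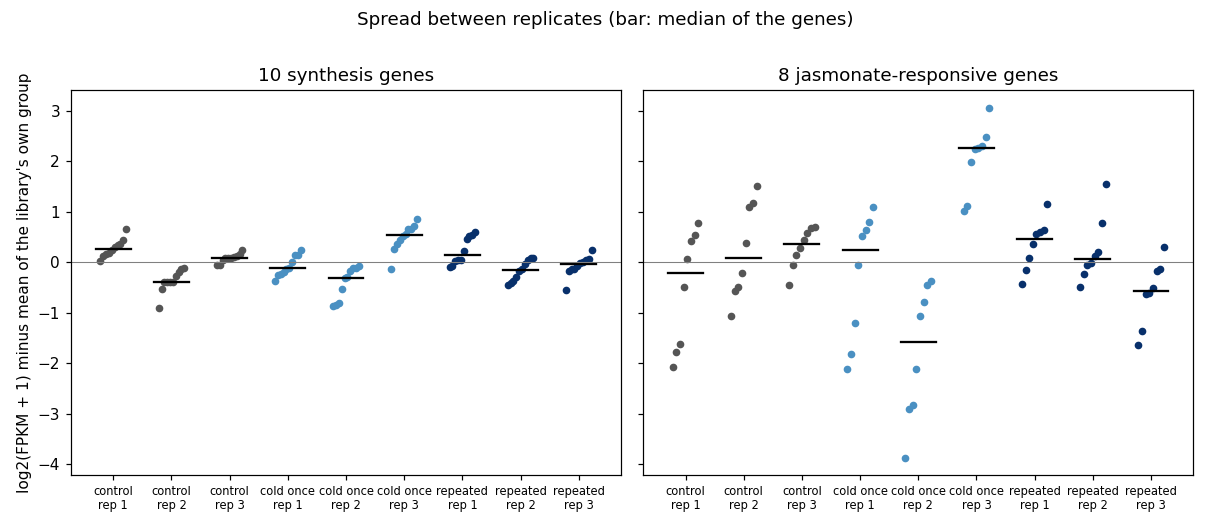
Log2(FPKM + 1) of each gene minus the mean of the library's own group, in the 9 libraries, for the 10 synthesis genes (left) and the 8 jasmonate-responsive genes (right); points are genes and bars their median. Cold-once replicate 3 has the highest medians, 0.54 on the left and 2.26 on the right, and control replicate 2 the lowest of the left panel, at -0.39.

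The other steps of the pathway were followed by 8 lists of 67 genes, of which 65 were in the table and 59 were tested. After 1 cycle 12 of the 59 were called higher and 19 lower, beside 18.7% and 33.6% of all genes. After 4 cycles 13 were called higher and 30 lower, beside 14.6% and 24.9% of all genes. The same shares stand beside the counts of each list below. Without the 3 libraries with the highest flower marker sums, which leaves 1 control library, fewer of the 59 were called in both comparisons. The same held for all genes of the table. MYC2 and JOX1 were not analysed here.

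Of 6 tested genes that supply linolenic acid to the lipoxygenases, 4 rose and 1 fell after 1 cycle, and 4 rose and 2 fell after 4. FAD8, a chloroplast omega-3 desaturase known to be induced by cold, averaged 87.5 ± 1.27 FPKM in cold once and 69.6 ± 9.51 in repeated cold, against 19.2 ± 0.823 in control (log2 2.13 ± 0.11 and 1.80 ± 0.11, limma adjusted p = 1.52e-06 and 6.39e-06). FAD7, the other chloroplast omega-3 desaturase, rose by 1.00 ± 0.09 and 0.94 ± 0.09, and FAD6, the omega-6 desaturase before it, by 0.83 ± 0.09 and 0.68 ± 0.09. The lipases DAD1 and DGL were at or near 0 in all libraries and were not tested.

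Of 9 tested genes for transport and for beta-oxidation in the peroxisome, 0 rose in either comparison, 5 fell after 1 cycle and 6 after 4. The thiolase gene KAT2 averaged 73.2 ± 4.52 FPKM in cold once and 78.7 ± 6.81 in repeated cold, against 210 ± 5.08 in control (log2 -1.51 ± 0.10 and -1.41 ± 0.10). The multifunctional protein genes AIM1 (-1.70 ± 0.15 and -1.49 ± 0.15) and MFP2 (-1.14 ± 0.15 and -0.88 ± 0.15) also fell. These enzymes serve fatty acid breakdown in general and not only jasmonate. KAT5, another thiolase gene, was the single gene of the 59 called between repeated cold and cold once, at 15.9 ± 4.87 FPKM against 42.3 ± 9.40 (log2 -1.37 ± 0.23, adjusted p = 0.0314); this call was kept under 11 of 20 alternatives, and leaving out 1 of control replicates 1 and 3, of cold-once replicates 2 and 3, or of repeated-cold replicates 1 and 3 ended it (adjusted p of up to 0.120 over the alternatives). Among the other lipoxygenase, lyase and reductase genes, 0 of 6 rose in either comparison, beside 18.7% and 14.6% of all genes. After 1 cycle 3 fell, beside 33.6% of all genes: LOX6 (-0.53 ± 0.18), OPR1 (-0.73 ± 0.21) and OPR2 (-0.73 ± 0.11). LOX6 kept this call in 14 of 20 alternatives. After 4 cycles 2 fell, beside 24.9%: OPR1 and OPR2, cytosolic relatives of OPR3 (-1.01 ± 0.21 and -0.97 ± 0.11).

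Of 9 tested genes that convert or break down jasmonic acid, 3 rose and 1 fell after 1 cycle, and 3 rose and 4 fell after 4. Of all genes, 18.7% rose and 33.6% fell after 1 cycle, and 14.6% rose and 24.9% fell after 4, so both directions were common. JMT, which makes methyl jasmonate, rose by 2.06 ± 0.20 and 1.09 ± 0.20, and GH3.10, a relative of JAR1, by 1.85 ± 0.25 and 1.47 ± 0.25 (limma adjusted p = 3.08e-04 and 0.00175). CYP94B3, which oxidizes jasmonoyl-isoleucine, had 8.66, 100 and 78.5 FPKM in cold once and 55.9, 37.0 and 24.3 in repeated cold, against 0.218, 0.337 and 7.65 in control, a wide spread with a log2 change of 4.14 ± 0.96 after 1 cycle (adjusted p = 0.00594). ST2A, a sulfotransferase acting on hydroxyjasmonate, fell by 2.56 ± 0.52 after 4 cycles.

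Among the transcription factors known to act on the synthesis genes, ORA47, an activator of several of them, averaged 3.87 ± 2.86 FPKM in cold once and 4.03 ± 0.643 in repeated cold, against 33.4 ± 3.92 in control (log2 -3.01 ± 0.39 and -2.77 ± 0.39, limma adjusted p = 2.48e-04 and 6.35e-04). TCP4 rose by 1.02 ± 0.10 after 1 cycle and TCP10 by 0.78 ± 0.12 and 0.61 ± 0.12, while TCP24 fell by 0.67 ± 0.11 after 4 cycles. In all 2 of 5 rose and 2 fell in both comparisons. Of the 5 tested perception genes 1 rose and 2 fell after 1 cycle, and 3 rose and 2 fell after 4, with MYC3, a partner of the JAZ proteins, among the falls (-0.88 ± 0.12 and -0.68 ± 0.12).

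Of 11 tested JAZ repressors, which are themselves induced by jasmonate, 2 rose and 3 fell after 1 cycle, and 1 rose and 5 fell after 4. Beside them, 18.7% of all genes rose and 33.6% fell after 1 cycle, and 14.6% rose and 24.9% fell after 4. JAZ1 averaged 117 ± 29.9 FPKM in cold once and 119 ± 31.2 in repeated cold, against 47.2 ± 10.3 in control (log2 1.29 ± 0.25 and 1.3 ± 0.25), and JAZ12 fell (-0.95 ± 0.14 and -0.86 ± 0.14). Of the 8 jasmonate-responsive output genes, 0 rose, 2 fell after 1 cycle and 7 after 4. Without the 3 libraries with the highest flower marker sums, which leaves 1 control library, the output genes lost their calls in both comparisons. Calls were then also fewer over the whole table. The falls of VSP2 and CORI3 were larger in that setting in both comparisons. After 4 cycles those of VSP1 and THI2.1 were also larger, and those of PDF1.2, PDF1.2B and PDF1.2C smaller. The log2 change after 4 cycles was then -4.18 for VSP2 and -3.57 for PDF1.2B, against -3.58 and -5.37 with all libraries. The control library kept, replicate 1, was the highest control for VSP2 and CORI3 and the lowest for PDF1.2, PDF1.2B and PDF1.2C. It was also the lowest control for VSP1 and lay between the others for THI2.1. THI2.1 kept its call after 4 cycles in 11 of 20 alternatives. VSP2, a storage protein gene widely used as a jasmonate reporter, had 5.82, 8.15 and 61.2 FPKM in cold once and 5.21, 8.03 and 9.27 in repeated cold, against 144, 69.2 and 95.2 in control (log2 -2.66 ± 0.71, adjusted p = 0.0114, and -3.58 ± 0.71, adjusted p = 0.00380). CORI3 also fell (-2.19 ± 0.51 and -2.65 ± 0.51). The high cold-once replicate 3 of VSP2 is the library in which 9 of the 10 synthesis genes were also highest.

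**Figure D5:**
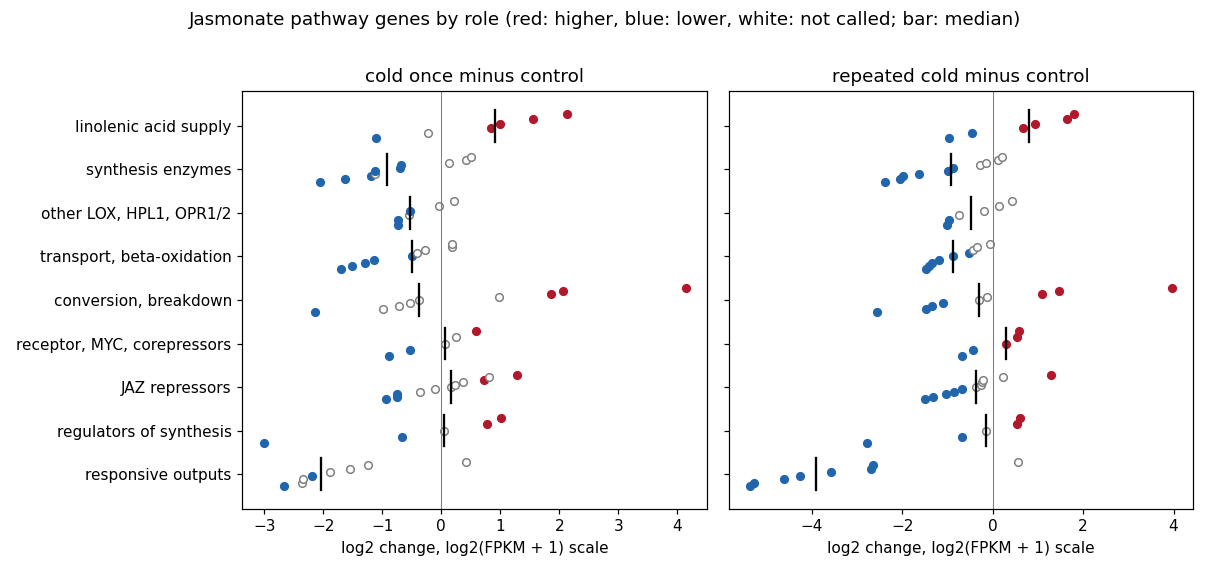
Log2 change (log2(FPKM + 1) scale) of the tested jasmonate genes grouped by role, for cold once minus control (left) and repeated cold minus control (right); each point is a gene, red if called higher, blue if called lower and white if not called, and bars are medians. The genes of linolenic acid supply have a median of 0.92 and 0.81, above 0, and the synthesis enzymes of -0.91 and -0.93.

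The genes outside the 10 whose profile over the 9 libraries was most like the mean standardized profile of the 10 members were ranked by Pearson's r on the log2(FPKM + 1) scale among 12391 genes with a mean of at least 5 FPKM. The 5 nearest were AT1G52000, a gene without a symbol in RefSeq (r = 0.966), RKP (AT2G22010, r = 0.964), the receptor-like kinase gene RLK7 (AT1G09970, r = 0.961), CORI3 (AT4G23600, r = 0.960) and ACX1 (AT4G16760, r = 0.958), an acyl-CoA oxidase gene of the beta-oxidation list. AT1G52000 averaged 100.3, 51.2 and 33.7 FPKM after 0, 1 and 4 cycles. These values are descriptions; the 9 points share group means and depth.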

How the data were processed

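The authors deposited 1 table of FPKM values for 25320 genes in 9 mRNA libraries made with a SMARTER kit from 0.5 µg of RNA, per the labels' protocols. The submitters' processing notes name TopHat, Cufflinks and Cuffdiff but give neither role nor version. Genome build and strandedness are not given in the sources used here. Starts and ends of 25094 of 25099 loci (99.98%) equal those of TAIR10.1, whose coordinates are printed. Whole reads could be recovered from the FPKM steps for 24959 genes (98.6%, tolerance 0.01 read), which gave the depths of 17.98 to 21.49 M reads. Counting errors cover counting only.

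Values were used as log2(FPKM + 1), without further scaling, for the 17740 genes that reached 1 FPKM in 3 or more of the 9 libraries. Group means were estimated in a single limma model (limma 3.58.1 under R 4.3.3, moderated along a mean trend; 3.21 degrees of freedom came from the prior) that held all libraries, and p-values were adjusted by the Benjamini-Hochberg method over all genes tested. Sequences were read and compared with Biopython 1.88, and tables and figures made with Python 3.11.15, pandas 2.3.3, numpy 2.4.6 and matplotlib 3.10.9. The procedure was tested on simulated data with 3 fold sizes, each in a single run. Most of the larger changes were called and few of the smallest were. The share of false calls was above the nominal level of the adjusted p in each of the 3. The runs used the same spread parameter for all genes and changed few of them, so the share of false calls in the real data cannot be read from them. A planned comparison of protein sequences was replaced by coding sequence identity. All 10 synthesis genes are named; of each other list up to 3 called genes with the smallest p; of the JAZ and output lists, counts and a few examples chosen after their values were seen; and the 5 nearest profiles. The members and lists were chosen with earlier results of these data known. In all, 20 alternatives were run, 1 of them (without the 3 libraries with the highest flower marker sums) added after seeing the data. Equal replicate numbers were not used as pairs in the main model. The correlations of same-numbered deviations over genes lay between -0.108 and 0.463 and were not all over 0.1. Against control they were 0.225, 0.223 and 0.029 for cold once and 0.368, 0.463 and 0.036 for repeated cold (replicates 1, 2 and 3). Unequal numbers gave -0.444 to 0.126 there. Between the cold groups equal numbers gave 0.204, 0.103 and -0.108. Replicate number was fitted as a block in an alternative described below, and the size of a shared replicate effect was not itself tested.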

Additional observations from a re-analysis of the deposited data

How the results depend on the processing

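Over 20 alternatives, 570 of 600 single-gene results of the synthesis enzymes kept their direction and their side of the threshold, 17 lost a call, 3 gained one and 10 changed sign, all 10 of them values that had not been called. The changes of AOC1, AOC2 and OPR3 against control remained called under all 20, after 1 and after 4 cycles. Members called numbered 5 to 7 after 1 cycle and, without single libraries, 5 to 6 after 4 cycles. Without the 3 libraries with the highest flower marker sums (control replicates 2 and 3, repeated-cold replicate 2), 3 members and 12 pathway genes were called after 4 cycles, in place of 6 and 43; this leaves 1 control library, which is assumed to vary like the others, and LOX2 (-2.45, adjusted p = 0.0700), AOS (-1.21, 0.0908) and AOC4 (-0.95, 0.0629) then kept their direction without a call. Between repeated cold and cold once 0 members were called under each alternative. The 1 pathway gene called there became 3 under median-of-ratios scaling and 2 under quantile normalization, a pseudocount of 5 and voom on recovered reads. It became 0 without a filter and with only the 6 libraries compared. The setting without the 3 flower-rich libraries cannot decide this, since the whole table then lost its calls in this comparison. Leaving out single libraries gave 29 to 37 pathway genes after 1 cycle, 35 to 44 after 4, and 0 to 2 between repeated cold and cold once.

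Changes that turned sign when single libraries were left out ranged, after 1 cycle, from -0.20 to 0.53 for AOC3. After 4 cycles they ranged from -0.18 to 0.35 for LOX3, -0.060 to 0.41 for LOX4 and -0.42 to 0.12 for AOC3. Between repeated cold and cold once they ranged from -0.47 to 0.054 for LOX4, -0.39 to 0.080 for AOS, -0.77 to 0.014 for AOC2 and -0.69 to 0.041 for AOC3, above 0 in each case without cold-once replicate 3. Replicate number was also fitted as a block, although no pairing of the samples is established. With it 7, 6 and 0 members and 34, 45 and 2 pathway genes were called, and LOX2 passed after 1 cycle (limma adjusted p = 0.0125). Limma's voom on recovered reads called 9273, 6939 and 197 of 17533 genes, against 9278, 7013 and 226 of 17740 on FPKM. The cause of these shifts was not tested. With at least 208 reads per gene and library, counting error was at most 6.93% of any member's value.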
